A study of Mus musculus with 48 samples.

Results

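The libraries described here are the 6 from arrested WT vAbl cells read from the Jκ1 coding end bait: 3 given STI-571 with the ligase inhibitor L67 and 3 given STI-571 with its solvent DMSO. They were chosen by their labels for genotype, treatment and bait, and are 6 of 48 libraries in the series. vAbl cells are mouse pro-B cells transformed by the Abelson kinase, and the study's methods name 1 clone for the WT cells. The cells of all 6 libraries received the Abelson kinase inhibitor STI-571 (3 μM) for 96 h, which arrests them and lets RAG1/2 cut the Igκ locus, and 5 μM L67 or DMSO was added on the same day. Each library was made from genomic DNA with HTGTS-JoinT-seq, which amplifies outward from the fixed Jκ1 end (the bait) and reads what was joined to it (the prey). The 3 libraries of a group are called 1, 2 and 3 in the order of deposit, and nothing in the labels pairs them or says whether they were separate cultures, so the tests measure the spread between these libraries, which may be technical. The study's figure legends state 3 biological repeats, but its methods do not list L67 among the compounds.

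RAG1/2 cuts between a coding segment and the heptamer of its recombination signal, leaving a hairpin-sealed coding end and a blunt signal end. In normal V(D)J recombination, classical NHEJ opens the hairpins, trims or fills the ends and seals them with DNA ligase IV, and a hairpin opened off its tip leaves a few self-complementary bases, called P nucleotides, at the joint. L67 inhibits DNA ligases I and III, the enzymes that alternative end joining (A-EJ) is known to use in place of ligase IV. A coding end joined to a coding end is a coding joint, and a coding end joined to a signal end is a hybrid joint.

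The Jκ1 end is shown first because every joint below starts from it, with the heptamer on the plus strand in capitals and the coding segment in lower case (Igkj1, ENSMUSG00000076604.1, chr6:70672549-70672593 on mm9). A second line gives the intergenic stretch between Jκ5 and Igkc that holds the heptamer (capitals, chr6:70675008-70675014) beside which the commonest junction of that stretch lies.

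Jκ1: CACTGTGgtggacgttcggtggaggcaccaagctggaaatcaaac

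Jκ-Cκ intron: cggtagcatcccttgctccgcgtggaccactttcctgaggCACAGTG

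The joints recovered most often in the DMSO libraries are given next, 5′ to 3′ from Vκ into Jκ1, since they show what the shares below count. They were chosen by their counts after the values were seen. Capitals mark inserted bases or bases shared by both ends, and a joint with no capitals is direct. The Igkv16-104 joint uses the first 2 bases of Jκ1 as microhomology, and the last 2 joints are the commonest with 2 inserted bases at ends that the direct joints of Igkv3-2 and Igkv12-44 also use.

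Igkv3-2: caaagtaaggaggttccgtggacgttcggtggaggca

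Igkv16-104: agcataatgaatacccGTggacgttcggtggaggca

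Igkv12-44: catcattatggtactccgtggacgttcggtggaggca

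Igkv8-27: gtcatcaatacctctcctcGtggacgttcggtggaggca

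Igkv1-88: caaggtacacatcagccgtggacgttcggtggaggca

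Igkv3-2 with insertion: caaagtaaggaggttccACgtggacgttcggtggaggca

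Igkv12-44 with insertion: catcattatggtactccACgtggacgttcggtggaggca

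Vκ-to-Jκ1 joining stayed the main outcome with L67. V-J efficiency counts the junctions that landed no more than 200 bp from where RAG1/2 breaks a Vκ segment, per 100 of a library's 500000 read pairs. It was 72.4, 68.9 and 69.2% in the DMSO libraries and 66.7, 65.0 and 67.3% in the L67 libraries. All L67 libraries lay below all DMSO libraries, with means of 70.2 ± 1.91% and 66.3 ± 1.24% (SD, n = 3 each) and a difference of -3.82 percentage points (SE 1.31, exact two-sided permutation p = 0.1). With 3 libraries against 3, 0.1 is the smallest p this permutation test can give, so no measure compared with it could pass 0.05. The total junctions fell alike, from 385847, 370032 and 370027 to 357131, 350141 and 359140. As a share of all junctions, Vκ joining was 93.5% with DMSO and 93.3% with L67, and the libraries overlapped. Counted once each, the distinct Vκ junctions numbered 11937, 11125 and 11506 with DMSO and 12183, 10839 and 12551 with L67, and the libraries overlapped. That count merges separate joints with the same positions and the same number of bases shared or inserted. It therefore cannot measure how often joining occurred. In cycling WT cells, the background for this measurement, V-J efficiency was 4.03, 5.45 and 5.88%.

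Of 14 measures compared over whole libraries, 5 did not overlap between the groups: V-J efficiency, microhomology over 1 bp, P-like insertions, untrimmed Vκ ends and the share of joints on the distal side of the Vκ region. Adjusted over the 14, the p of each of these is 0.28 by the Benjamini-Hochberg method. The plot of library values shows the sizes of these differences beside measures that overlapped.

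**Figure D1:**
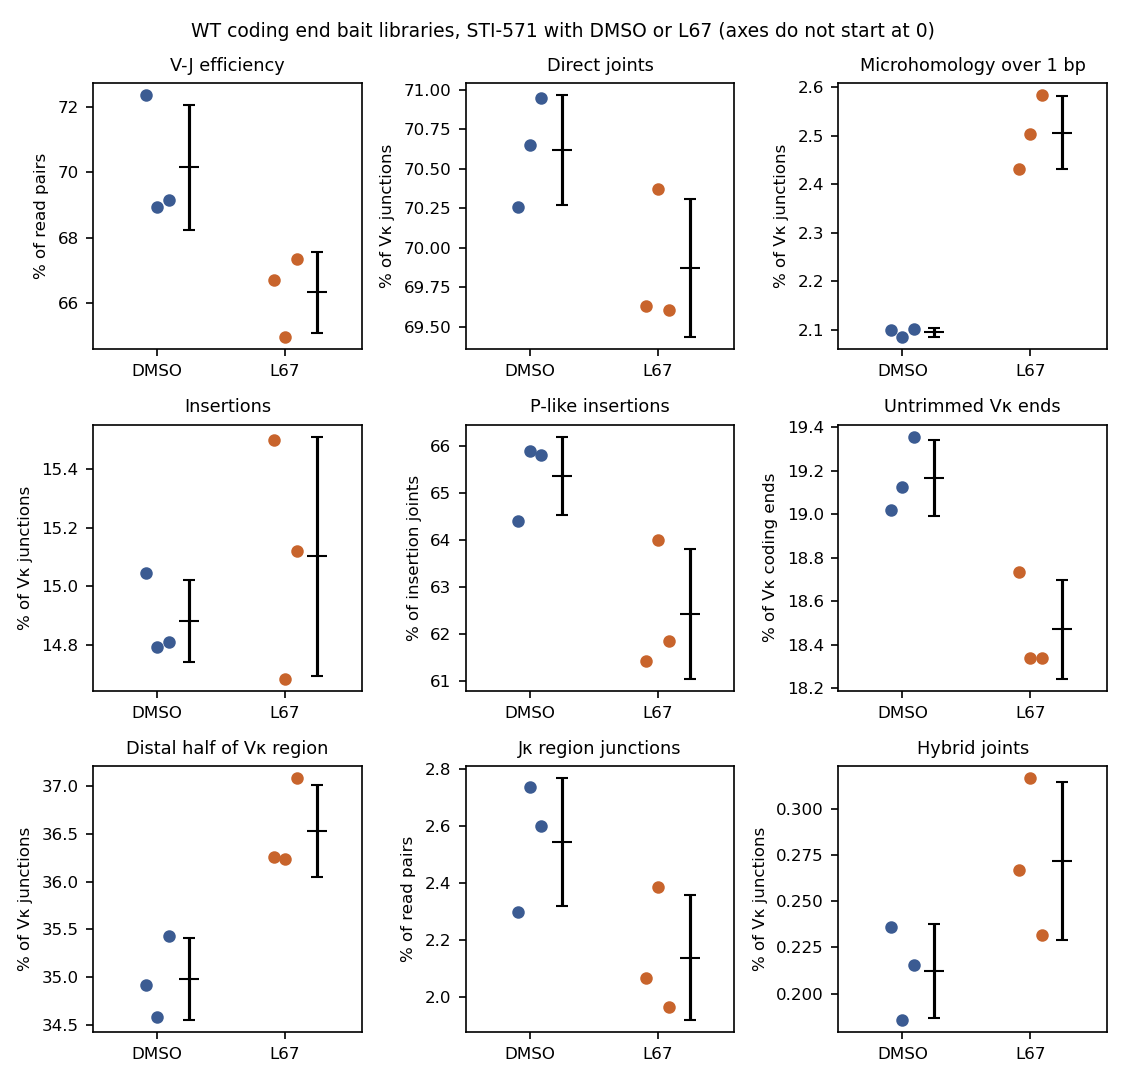
Each panel plots 1 measure, in the percentage named on its vertical axis, for the 3 DMSO (blue) and 3 L67 (orange) libraries, with the mean and SD in black; axes do not start at 0. Microhomology over 1 bp runs from 2.08 to 2.10% with DMSO and from 2.43 to 2.58% with L67, whereas the insertion and hybrid shares of the groups overlap.

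Joints with longer microhomology were more frequent with L67. Joints sharing over 1 bp between Jκ1 and Vκ made up 2.10, 2.08 and 2.10% of Vκ junctions in the DMSO libraries and 2.43, 2.50 and 2.58% in the L67 libraries. The spread between replicates was small beside the gap between the groups, and the means of 2.10 ± 0.00934% and 2.51 ± 0.0759% (SD, n = 3) stood at a ratio of 1.20 (exact p = 0.1, the smallest possible). Joints with exactly 2 shared bases rose from 1.78 ± 0.0111% to 2.12 ± 0.07% without overlap. At 4 bases the share was 0.041, 0.050 and 0.048% with DMSO and 0.072, 0.080 and 0.075% with L67, a ratio of 1.64 between groups that did not overlap. Joints with 6 shared bases were lower on average with L67, at 0.0116% with DMSO and 0.00905% with L67. They overlapped between the groups, as did joints with 3 and with 5 shared bases. The same held for 1 shared base, which is often a chance match between ends, at 12.6, 12.5 and 12.1% with DMSO and 12.4, 12.4 and 12.7% with L67.

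Most of the 2-bp microhomologies shared GT, the letters that open Jκ1. They formed 1.21, 1.27 and 1.28% of Vκ junctions with DMSO and 1.38, 1.39 and 1.51% with L67, and the groups did not overlap. A single segment supplied much of this class. Igkv16-104 (ENSMUSG00000076522.1) ends in gtac, so that loss of 2 bases from it lays GT against GT, and the Igkv16-104 joint shown above was counted 3175, 3024 and 3171 times with DMSO and 3276, 3083 and 3528 times with L67. Within Igkv16-104, microhomology over 1 bp formed 58.9, 60.9 and 58.7% of joints with DMSO and 57.1, 56.7 and 58.2% with L67, lower without overlap. The site itself took more of the Vκ junctions with L67, without overlap (log2 0.24, limma adjusted p = 0.0609). As a share of all Vκ junctions, its joints of this class went from 0.890, 0.899 and 0.937% to 1.02, 0.987 and 1.10%. Over all other sites the class went from 1.21, 1.19 and 1.16% to 1.41, 1.52 and 1.48% of Vκ junctions, a ratio of 1.24 with no overlap. AC, the next class of 2 shared bases, was counted 1346, 1275 and 1182 times with DMSO and 1457, 1450 and 1553 times with L67. Its share stood at a ratio of 1.24 without overlap, and TG, the class after it, overlapped. A smaller class with TC as the shared bases was counted 109, 87 and 134 times with DMSO and 281, 234 and 181 times with L67, a ratio of 2.23 in its share. Among the 115 sites with at least 50 junctions on average, the share of microhomology over 1 bp was higher with L67 at 73 and lower at 38. The groups did not overlap upward at 12 sites (10.4%) and downward at 5 (4.35%).

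**Figure D2:**
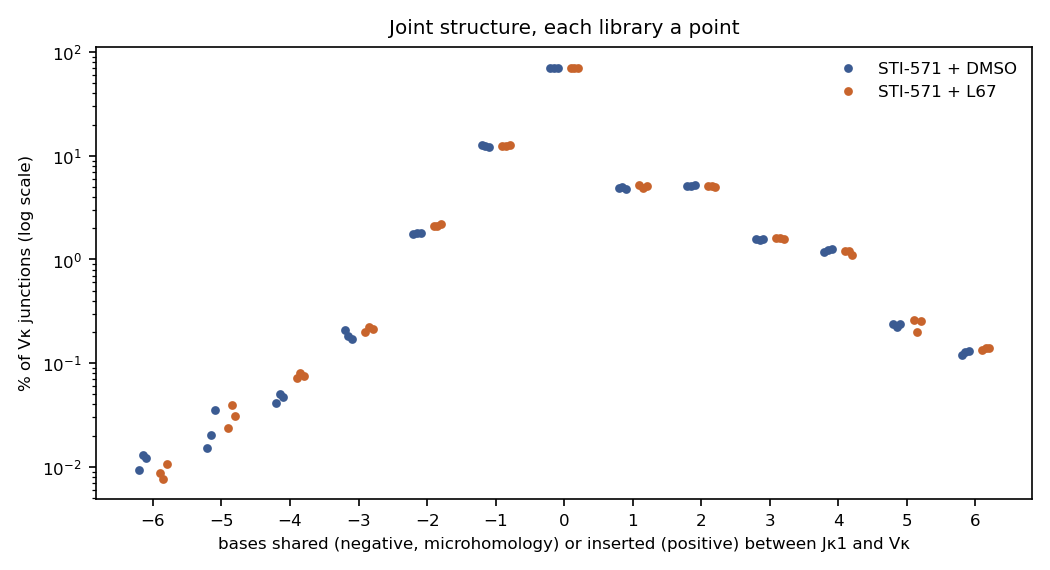
The share of Vκ junctions (vertical axis, percent, log scale) is plotted against the bases shared (negative) or inserted (positive) between Jκ1 and Vκ, with a point for each library. The L67 points sit above the DMSO points at 2 and 4 shared bases, and direct joints, at 0, make up 69.6 to 71.0% in every library.

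Direct joints, which neither share nor add a base, were the largest class with copies counted, at 70.3, 70.6 and 71.0% with DMSO and 69.6, 70.4 and 69.6% with L67. The difference of -0.749 percentage points (SE 0.323, exact p = 0.2) left the libraries overlapping. The leading class depends on the copies: counting each distinct junction once, direct joints were 27.1% with DMSO and 27.0% with L67, and insertions led with 63.1 and 62.5%. With copies counted, insertions were found in 15.0, 14.8 and 14.8% of Vκ junctions with DMSO and in 15.5, 14.7 and 15.1% with L67, also overlapping (exact p = 0.6). Insertions of 8 to 20 bases made up 1.78, 1.42 and 1.55% of Vκ junctions with DMSO and 1.78, 1.41 and 1.83% with L67. The leading 5 sites for these long insertions, Igkv4-50, Igkv4-61, Igkv4-57-1, Igkv6-17 and Igkv4-74, held 24.6% of them, and the median Vκ end beside them had lost 18 bases.

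A smaller share of insertions matched the adjoining ends as P nucleotides would with L67. An insertion was called P-like when all its bases could be read as the reverse complement of the adjoining Jκ1 end, Vκ end or both. P-like insertions formed 64.4, 65.9 and 65.8% of insertion joints with DMSO and 61.4, 64.0 and 61.8% with L67, with means of 65.4 ± 0.835% and 62.4 ± 1.38% (SD, n = 3) that differed by -2.94 percentage points (SE 0.931, exact p = 0.1, the smallest possible). All L67 libraries lay below all DMSO libraries. Counting each distinct junction once, the shares were 29.1 and 28.3% and the libraries overlapped. Among 2-base insertions the P-like share was 77.6, 76.8 and 76.3% with DMSO and 73.3, 74.0 and 74.3% with L67, and among 4-base insertions 73.5, 76.3 and 75.6% against 70.72, 69.9 and 65.8%, neither overlapping. Among 1-base insertions the means were 73.4 and 71.8%, and among 3-base insertions 73.1 and 70.1%, and both overlapped (exact p = 0.2 each). Where both ends had kept their last coding base, 94.8% of insertions were P-like with DMSO and 94.3% with L67, and the libraries overlapped. A match also occurs where an end has lost bases and can hold no P nucleotide. Of 1-base insertions with both ends trimmed, 54.4% still matched with DMSO and 51.1% with L67, and of 2-base insertions 37.7 and 36.5%, both overlapping. Over all insertions with both ends trimmed, the share was 29.7, 31.7 and 29.2% with DMSO and 26.8, 28.9 and 27.4% with L67. Here the groups did not overlap (exact p = 0.1, the smallest possible), though these ends can hold no P nucleotide.

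The inserted bases themselves, written from Vκ to Jκ1, were led by AC, which is the palindrome of the GT that opens Jκ1. AC was counted at 223, 231 and 224 per 1000 insertion joints with DMSO and at 200.5, 212 and 207 with L67, a fold of 0.913 between groups that did not overlap (limma adjusted p = 0.774). The longer palindrome CCAC stood at 56.4, 61.7 and 61.7 per 1000 with DMSO and 52.9, 55.4 and 46.7 with L67 (fold 0.86, adjusted p = 0.703), and CAC at 46.5, 48.0 and 48.1 with DMSO and 44.1, 48.1 and 47.0 with L67. Of AC insertions, 97.4% lay at an untrimmed Jκ1 end, and so did 99.7% of CCAC insertions. The single bases C, T, G and A followed AC in frequency, at 132, 68.9, 66.4 and 63.6 per 1000 as DMSO means and 136, 73.4, 59.7 and 67.8 as L67 means. G, which was P-like in 87.3% of its joints and lay at an untrimmed Jκ1 end in 0.62%, did not overlap between groups (fold 0.899, adjusted p = 0.774). TC, the eighth in frequency, was level at 35.7 and 35.8 per 1000.

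None of the 51 inserted sequences with at least 50 joints on average passed an adjusted p of 0.05 in limma (0.0% called), with 5 at an unadjusted p under 0.05. Groups did not overlap for 9 of the 51 (17.6%), 6 higher (11.8%) and 3 lower (5.88%). The 3 lower were AC, G and CCAC, and the 6 higher were each P-like in 52.5% of their joints or less. ACCC had the largest rise, from 1.03, 1.22 and 1.35 to 1.73, 2.90 and 2.78 per 1000 (fold 2.0, adjusted p = 0.239).

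Fewer Vκ ends were left intact with L67, by a small amount. Vκ coding ends that kept their last base made up 19.02, 19.1 and 19.4% with DMSO and 18.7, 18.3 and 18.3% with L67, a difference of -0.696 percentage points (SE 0.165, exact p = 0.1, the smallest possible) with no overlap. Over distinct junctions the shares were 13.9 and 13.6% and overlapped. Loss of 3 bases was the commonest outcome, at 28.8, 29.0 and 28.8% with DMSO and 28.1, 28.5 and 27.8% with L67. Losses of 4, 5 and 6 bases were each higher in every L67 library than in any DMSO library, the 5-base class rising from 8.02 ± 0.143% to 8.57 ± 0.0838%. The mean loss within 20 bases rose from 2.65 ± 0.0221 to 2.74 ± 0.0357 bases, while the median was 3 in every library. Within single sites the untrimmed share was lower with L67 at 78 of 115 sites and higher at 37, without overlap downward at 10 (8.7%) and upward at 2 (1.74%). The insertion share within a site was higher at 64 and lower at 51, without overlap upward at 8 (6.96%) and downward at 5 (4.35%).

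The Jκ1 end was left intact more often than the Vκ ends, in 41.5, 41.98 and 41.8% of Vκ junctions with DMSO and 41.7, 41.6 and 41.2% with L67, and the groups overlapped (exact p = 0.3). Ends within 1 base of intact were 56.1% with DMSO and 56.2% with L67. Loss of 4 or more bases from Jκ1, a class chosen after the values were seen, did not overlap, at 3.94, 3.94 and 3.92% with DMSO and 4.36, 4.43 and 4.26% with L67, a ratio of 1.11. Junctions stayed close to the break. Of those within 100 bp, 97.8, 98.2 and 98.0% lay within 10 bp with DMSO and 97.6, 98.1 and 97.6% with L67, which overlapped (exact p = 0.3). Within 5 bp the groups no longer overlapped, with means of 92.5 and 91.7%.

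**Figure D3:**
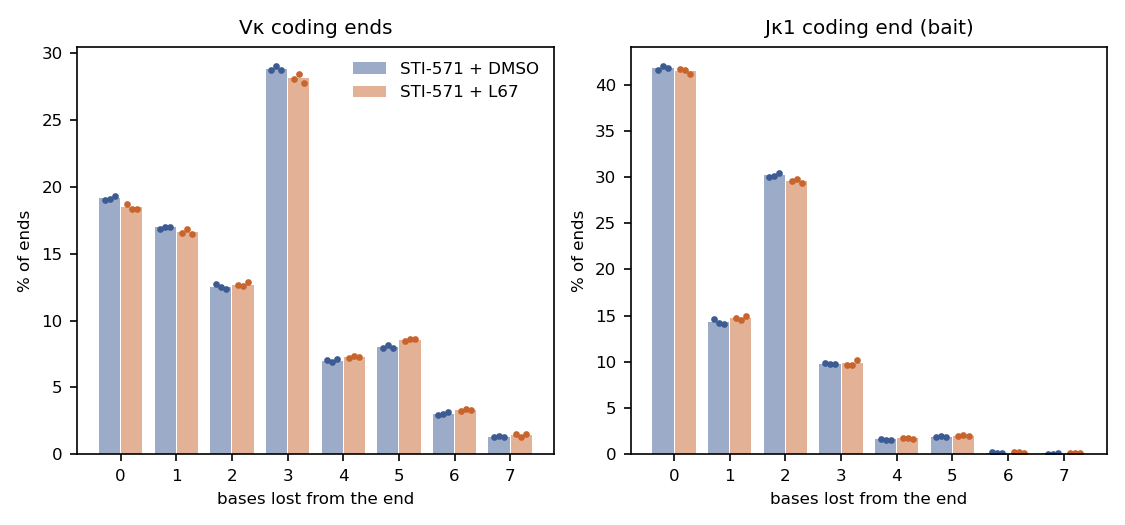
Bars give the mean percentage of ends (vertical axis) that lost 0 to 7 bases (horizontal axis) at Vκ coding ends and at the Jκ1 bait end, with a point for each library of the DMSO (blue) and L67 (orange) groups. Loss of 3 bases leads at Vκ ends and no loss leads at Jκ1 in all 6 libraries, and Vκ losses of 4 to 6 bases are higher with L67.

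A smaller share of joints lay at the Vκ segments nearest Jκ1 with L67. The Vκ break sites used here number 138, with coding ends between positions 67506210 and 70654171 of chromosome 6 on mm9, and the farthest lies over 3 Mb from Jκ1. On the distal side of the midpoint of that region lay 34.9, 34.6 and 35.4% of Vκ junctions with DMSO and 36.3, 36.2 and 37.1% with L67, a difference of 1.54 percentage points (SE 0.371, exact p = 0.1, the smallest possible). With the region divided into 4 equal bins, the bin nearest Jκ1 held 31.6, 32.1 and 31.9% with DMSO and 29.7, 29.2 and 28.4% with L67. The other 3 bins each held a larger share with L67 and did not overlap. Because the bins divide the same total, a lower share in the bin nearest Jκ1 raises the others without more joints there. The Vκ junctions per library were themselves fewer with L67, at means of 350752 with DMSO and 331673 with L67. Counting each distinct junction once, the share on the distal side was 35.1% with DMSO and 35.8% with L67, and the libraries overlapped. In cycling cells the bin nearest Jκ1 held 39.2, 38.4 and 37.6%. The share of deletional sites overlapped between the groups. They took 40.4, 40.8 and 42.1% with DMSO and 40.7, 40.7 and 40.3% with L67 (exact p = 0.4), and without DMSO library 1 the groups no longer overlapped (-0.869 percentage points).

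Usage of single sites, as junctions per 1000 Vκ junctions, was fitted with limma for 115 sites, and 6 of them (5.22%) passed a Benjamini-Hochberg adjusted p of 0.05, 2 higher (1.74%) and 4 lower (3.48%). The ends of these 6 are shown for comparison, the last 20 coding bases in lower case and the heptamer in capitals.

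Igkv1-88: caaggtacacatcagcctccCACAGTG

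Igkv6-17: caacattatagtactcctccCACAGTG

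Igkv8-24: caacattatagcactcctccCACAGTG

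Igkv3-1: caaagtaggaaggttccttcCACAGTG

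Igkv2-109: caaaatctagaacttcctccCACACTG

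Igkv18-36: cctttcaaaagttggtcataCACAGTG

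Igkv1-88 (ENSMUSG00000076535.1, coding end at 68812259, inversional) was used at 27.5, 27.6 and 27.1 per 1000 with DMSO and 21.0, 20.4 and 20.4 with L67. This fall to 0.752 of the DMSO level (log2 -0.41, SE 0.0413, limma adjusted p = 0.00811) came at the fifth most used site. Its commonest joint, the direct joint printed above, was counted 2657, 2501 and 2417 times with DMSO and 1640, 1588 and 1666 times with L67. Igkv6-17 (ENSMUSG00000076590.2, 70321987, deletional) went from 19.9, 20.2 and 21.2 to 14.6, 14.5 and 15.4 per 1000, a fold of 0.725 (adjusted p = 0.00811). Igkv8-24 (ENSMUSG00000076583.1, 70166852, inversional) went from 21.5, 23.3 and 22.7 to 16.7, 16.6 and 15.2 per 1000, a fold of 0.718 (adjusted p = 0.0125). Igkv3-1 (ENSMUSG00000076603.1, 70654171, deletional), the Vκ segment nearest Jκ1 at 18.4 kb, went from 11.6, 11.3 and 9.93 to 8.06, 8.14 and 6.94 per 1000, a fold of 0.705 (adjusted p = 0.0392).

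In the other direction, Igkv2-109 (ENSMUSG00000076521.1, 68253152, deletional, 2419 kb from Jκ1) rose from 11.0, 11.6 and 11.3 to 13.9, 14.6 and 14.2 per 1000, a fold of 1.26 (adjusted p = 0.0175). Igkv18-36 (ENSMUSG00000076572.2, 69942459, inversional) was a rarer site and rose from 1.92, 2.07 and 2.06 to 2.56, 3.05 and 2.99 per 1000, a fold of 1.42 (adjusted p = 0.0249). The 6 sites lie in 6 different Vκ families and in both orientations. Of the 4 that fell, 3 end in CCTCC at the coding side, as do 52 of the 115 sites tested (45.2%). The calls depend on the libraries at hand: without DMSO library 2 no site passed (31 at an unadjusted p under 0.05), and without any other single library 2 to 4 did.

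**Figure D4:**
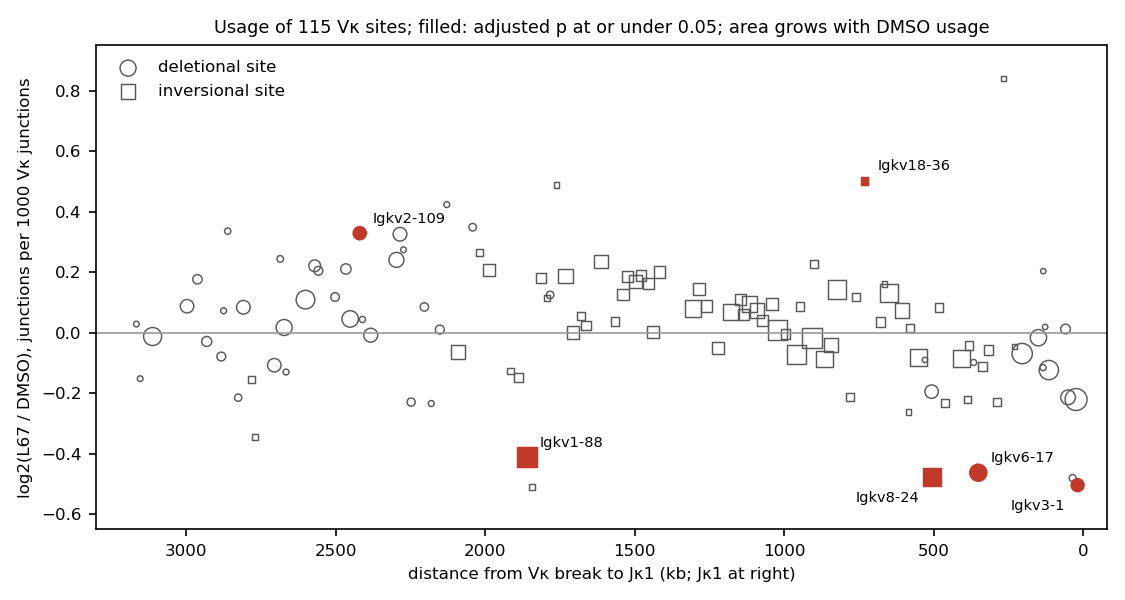
The log2 ratio of L67 over DMSO usage (vertical axis) is plotted for 115 Vκ sites against distance to Jκ1 in kb (Jκ1 at right), circles for deletional and squares for inversional sites, area growing with usage. Filled symbols name the 6 sites past an adjusted p of 0.05, and 24 of the 36 sites in the bin nearest Jκ1 lie below 0.

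The order of the 10 sites most used with DMSO changed with L67, with Igkv3-2 first in both groups and Igkv1-88 the lowest of the 10 with L67. Igkv3-2 stood at 34.9, 34.6 and 35.8 per 1000 with DMSO and 31.6, 30.01 and 28.7 with L67, without overlap but short of the threshold (fold 0.858, adjusted p = 0.0609). Igkv3-12, Igkv12-44, Igkv4-50, Igkv1-117 and Igkv12-46 overlapped between groups, with folds of 0.953, 0.987, 1.01, 1.08 and 0.951. Igkv3-7 was lower without overlap (fold 0.918, adjusted p = 0.226), and Igkv5-39 (fold 1.10) and Igkv6-32 (fold 1.09) were higher without overlap, both with an adjusted p of 0.243.

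Families differed in how many of their sites had lower means with L67, beside 48 lower and 67 higher of all 115 sites. All 8 Igkv3 sites tested had lower means with L67, 5 of them without overlap and 1 past the threshold, with a median log2 ratio of -0.17 beside 0.03 over all 115 sites. In Igkv6, 7 of 9 were lower (4 without overlap, 1 past the threshold, median -0.22), and in Igkv8, 7 of 9 (1 without overlap, a share near that over all sites, 1 past the threshold, median -0.09). Igkv4, the largest family, leaned the other way: 19 of 22 were higher, 10 without overlap, none past the threshold, with a median of 0.09. All these values are shares of Vκ junctions, whose number was lower with L67 (ratio of means 0.946). A higher share at a site therefore need not mean more joints there. Over all sites tested, 22 were higher without overlap (19.1%) and 15 lower (13.0%). Igkv1 and Igkv14 were evenly split, and Igkv2 (4 of 4) and Igkv5 (4 of 5) had higher means, with medians of 0.17 and 0.12. In Igkv12, 5 of 6 were lower and in Igkv9, 3 of 4, with medians of -0.08 and -0.12. By position, 24 of 36 sites in the bin nearest Jκ1 were lower, 6 of 28 in the next bin, 8 of 25 in the one after and 10 of 26 in the most distal. All Igkv3, Igkv6 and Igkv8 sites tested lie in the bin nearest Jκ1, and no Igkv4 site does. For these families, family and position cannot be told apart.

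Among whole joint structures, defined by site, both end losses and the shared or inserted bases, none of 1133 passed the adjusted threshold in limma (0.0% called), with 92 at an unadjusted p under 0.05. Groups did not overlap for 147 (13.0%), 70 higher (6.18%) and 77 lower (6.8%). The Igkv16-104 joint shown above was higher without overlap (fold 1.11, adjusted p = 0.89), and the Igkv3-2 direct joint was lower without overlap (fold 0.832, adjusted p = 0.784). Usage of both sites moved the same way without overlap, at log2 0.24 for Igkv16-104 and -0.22 for Igkv3-2.

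The same 6 sites were examined in other libraries given L67 and DMSO, which share no library with these. The labels do not say whether the WT signal end libraries came from the same cells or DNA as the coding end libraries. From the WT signal end bait, Igkv6-17 stood at 34.0, 35.0 and 33.1 per 1000 with DMSO and 25.0, 29.0 and 26.5 with L67 (log2 -0.34, SE 0.105), and Igkv3-1 at 7.93, 6.59 and 7.32 with DMSO and 5.26, 5.71 and 5.59 with L67 (log2 -0.40, SE 0.114). Neither group pair overlapped, and both had an adjusted p of 0.247 over 114 sites. Igkv1-88 and Igkv8-24 overlapped there, at log2 -0.19 and -0.22. Igkv18-36 stood at 0.40 without overlap (adjusted p = 0.413), and Igkv2-109 at 0.12 with overlap. No site passed the threshold in that fit, with 14 at an unadjusted p under 0.05. In Ku70-/- cells, which lack a core factor of classical NHEJ, Igkv6-17 from the coding end bait went from 30.7, 27.4 and 26.4 to 18.9, 16.0 and 18.2 per 1000, and Igkv8-24 from 12.5, 14.3 and 13.9 to 10.8, 8.11 and 7.81. Igkv1-88 was at 30.1, 20.9 and 21.2 with DMSO and 19.3, 18.3 and 16.4 with L67, and Igkv3-1 overlapped. Of the sites that rose in WT cells, Igkv2-109 was at 41.02, 9.40 and 9.97 with DMSO and 11.4, 12.1 and 11.2 with L67 in Ku70-/- cells, lower on average over all libraries (log2 -0.44) and higher without the first DMSO library (log2 0.26). Igkv18-36 was listed at 0, 1.43 and 1.40 with DMSO and 1.64, 2.68 and 2.197 with L67. Igkv6-17, Igkv8-24, Igkv1-88 and Igkv18-36 did not overlap there. The adjusted p of Igkv6-17 and of Igkv8-24 was 0.631 over all 6 libraries and 0.198 without the first DMSO library. No site passed in either fit, of 100 tested with 3 at an unadjusted p under 0.05, and of 102 tested with 10. That library is absent from the study's tables and holds 889 distinct Vκ junctions against 12042 or more in the other DMSO libraries.

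The level of hybrid joints depended on how they were defined. Joints of the Jκ1 coding end to a Vκ signal end were 855, 640 and 745 in number with DMSO and 890, 1028 and 780 with L67, or 0.236, 0.186 and 0.215% against 0.267, 0.317 and 0.232% of Vκ junctions. The groups overlapped (ratio 1.28, exact p = 0.2). Called by the side of the break alone, the share was 1.48% with DMSO and 1.43% with L67. Distinct hybrid joints numbered 144, 119 and 139 with DMSO and 178, 147 and 175 with L67, and these did not overlap. Microhomology over 1 bp marked 58.6, 49.7 and 51.3% of hybrid joints with DMSO and 64.6, 57.9 and 65.9% with L67, and the libraries overlapped (exact p = 0.2). This share was taken over all hybrid joints with no upper limit on the overlap, so it may include long alignment overlaps. It is therefore not directly comparable with the share among Vκ junctions. In cycling cells the hybrid share was 0.511, 0.979 and 0.391%, from 103, 267 and 115 joints.

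Junctions from Jκ1 also reached its neighbours. The Jκ region, within 2 kb of the bait break, took 2.30, 2.74 and 2.60% of read pairs with DMSO and 2.07, 2.39 and 1.97% with L67, which overlapped (exact p = 0.2). Much of this was at the other Jκ segments. Junctions on the signal side of Jκ2 to Jκ5 breaks numbered 4795, 5800 and 5277 with DMSO and 4049, 4941 and 3708 with L67, and those on the coding side 2200, 2167 and 2103 with DMSO and 2001, 1892 and 2361 with L67. A further 3759, 4811 and 4988 with DMSO, and 3527, 4301 and 2982 with L67, aligned to Jκ2 to Jκ5 with over 20 bases shared with the bait. Leaving these out, the Jκ region share did not overlap, at means of 1.64 and 1.42%.

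The intronic heptamer was the largest single destination outside the Vκ sites. It took 8174, 7996 and 7755 junctions with DMSO and 8873, 8856 and 8085 with L67, counted within 200 bp of it, and the groups overlapped (exact p = 0.2). The distinct junctions there, at 153, 155 and 153 with DMSO and 168, 149 and 168 with L67, overlapped too (exact p = 0.4). Set against Vκ joining, which was itself lower with L67, the count was 2.26, 2.32 and 2.24 per 100 Vκ junctions with DMSO and 2.66, 2.73 and 2.40 with L67, a ratio of 1.14 with no overlap (exact p = 0.1, the smallest possible). From 33.6 to 42.2% of these junctions shared over 1 bp with the bait, in all 6 libraries far above the share at Vκ sites. Between the last Vκ site and the Jκ region lay 2162, 1875 and 1722 junctions with DMSO and 2233, 2392 and 2283 with L67, a ratio of 1.20, and here too the groups did not overlap, nor did their distinct junctions at 208, 187 and 215 against 245, 220 and 257.

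**Figure D5:**
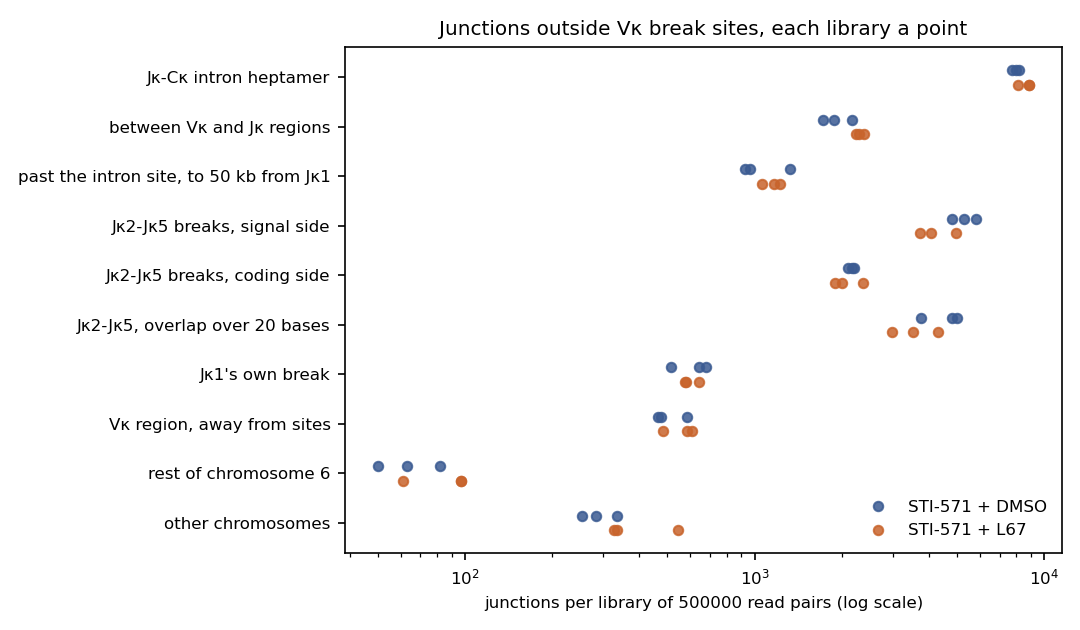
Junctions per library (horizontal axis, log scale) are plotted for 10 destinations outside the Vκ break sites, with DMSO libraries in blue and L67 libraries in orange. The intronic heptamer leads in all 6 libraries, and among these destinations the L67 points clear the DMSO points between the Vκ and Jκ regions.

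Junctions outside chromosome 6, the interchromosomal translocations, numbered 253, 284 and 334 with DMSO and 328, 543 and 336 with L67. On the log2 scale the difference was 0.44 (SE 0.264, exact p = 0.2), and the groups overlapped. L67 library 2 stood above the rest, with 209 positions against 129 to 165 in the other 5 libraries. Each library thus held more junctions than positions, and of 852 positions over the 6 libraries 801 were found in 1 library. Insertions formed 57.7, 49.4 and 45.9% of these junctions with DMSO and 44.3, 43.7 and 39.0% with L67. At the antigen receptor loci, which RAG1/2 can also cut, the Igh window held 13, 13 and 16 junctions with DMSO and 44, 13 and 7 with L67. Most of those lay at position 114667716 of chromosome 12, found in 5 of the 6 libraries. The Igl window held 6, 4 and 40 with DMSO and 24, 0 and 0 with L67, and the Tcra/Tcrd window 2, 0 and 2 with DMSO and 1, 16 and 31 with L67. None was found in the Tcrg window in any of the 6 libraries, and a count of 0 allows up to 3, a limit that covers counting error only. In cycling cells 47, 110 and 64 junctions lay outside chromosome 6.

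How far the L67 difference depended on bait and genotype was tested for V-J efficiency, hybrid share, Jκ region share and translocations, 8 tests in all. V-J efficiency fell from the WT signal end bait too, from 67.6, 64.9 and 64.9% to 63.6, 61.1 and 57.0%, a change of -5.22 percentage points that was not shown to differ from the coding end's -3.82 (exact permutation p = 0.735). The test treats the baits as independent, although they may share DNA. The Jκ region share changed by -0.405 percentage points from the coding end and by 0.0522 from the signal end (exact permutation p = 0.09). In Ku70-/- cells with the coding end bait, V-J efficiency was instead higher with L67, at 23.2, 24.4 and 24.9% against 18.8, 22.4 and 21.5%. This difference in effect passed the test (-7.03 percentage points, exact permutation p = 0.005, 0.04 adjusted over the 8). That p is the smallest the test can give, so it does not grade the size of the difference. The Jκ region share moved in opposite directions as well, by -0.405 in WT and 0.627 in Ku70-/- cells (exact permutation p = 0.01, adjusted 0.04). Both held without the Ku70-/- DMSO library absent from the study's tables, with an exact permutation p = 0.01 each. The test reassigned treatments within each genotype, so it assumes no change with L67 in either. The methods name 1 clone for each genotype, so genotype and clone cannot be told apart. For the hybrid share, the change was not shown to differ between baits (exact permutation p = 0.62) or genotypes (exact permutation p = 0.91). Nor was it for translocations (exact permutation p = 0.97 and 0.77). Translocations were higher on average with L67 in both genotypes, by 0.439 in WT and 0.562 in Ku70-/- cells (log2). Microhomology over 1 bp in Ku70-/- cells was 11.8, 16.7 and 16.9% with DMSO and 18.2, 17.4 and 17.9% with L67.

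L82-G17, an inhibitor of DNA ligase I, was given to WT cells at 25 μM rather than 5 μM, so its values stand beside those of L67 with no comparison. With L82-G17, V-J efficiency was 35.8, 34.6 and 39.6% and microhomology over 1 bp 2.61, 2.86 and 2.99%. The bin nearest Jκ1 held 28.0, 27.5 and 27.8% of Vκ junctions, and hybrid joints 0.333, 0.405 and 0.339%.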

How the data were processed

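HTGTS-JoinT-seq junction lists of WT and Ku70-/- vAbl libraries were analysed, grouped by their labels, and no sample was left without a group. Before the authors deposited the lists, with 1 junction a line and its prey and bait positions on mm9, they demultiplexed and trimmed the reads, sampled 500000 read pairs per library (Seqtk) and mapped them with TranslocWrapper.pl without removing duplicates. Per the labels, Bowtie2 was used, with no version given in the sources used here. Copies of a junction therefore count many times, and each library was read in 2 runs, the smaller giving 9.86 to 10.1% of its junctions in the 6 libraries compared. The deposited values of other kinds (positions, strands and read coordinates) were counted here into junctions, percentages and log2 values.

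Vκ break sites were placed where at least 30 junctions from the signal end bait, over arrested WT libraries, ended beside CAC with no taller position within 50 bp, in mm9 and GENCODE vM1, giving 138 sites, 93 beside an annotated Vκ gene. Overlap of bait and prey on the read was taken as microhomology and a gap as insertion, within 20 bases. The microhomology share of hybrid joints had no such limit. Vκ segments resemble each other, and reads that could belong to either of a pair were placed by the authors' mapping. Libraries were compared with exact two-sided permutation tests, which assume equal spread, and features with at least 50 junctions on average with limma 3.58.1 in R 4.3.3 on log2 values per 1000 with 1 junction added, at an adjusted p of 0.05; fold changes are on that scale. The fits were tested on simulated data. Sites named are the 10 most used with DMSO and those past the threshold without overlap, and families those with 4 or more sites. Inserted sequences named are the 8 most frequent with DMSO. ACCC was added after the values were seen, as the largest rise without overlap. The measures, sites and lists were chosen with earlier results of these data known. Replicates of a group differed in site usage by 9.74 to 19.5 times sampling noise (chi-square per degree of freedom). That measure takes PCR copies as independent, so it does not show that the libraries came from separate DNA. No pair of libraries had the same junction total.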

Additional observations from a re-analysis of the deposited data

Results flagged for a closer look

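Results of 2 measures stood out because the change with L67 differed between WT and Ku70-/- cells. The difference between the 2 changes in V-J efficiency was -7.03 percentage points, with a change of -3.82 in WT and 3.21 in Ku70-/- cells (exact permutation p = 0.005, the smallest possible). All 3 libraries of each L67 group lay on that side of their DMSO group. For the Jκ region share it was -1.03 percentage points (exact permutation p = 0.01), where the WT groups overlapped and the Ku70-/- groups did not. Permutation within a genotype assumes no effect of L67 in either, so these p-values do not test equal effects alone.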

How the results depend on the processing

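Leaving out any 1 of the 6 libraries kept the direction and the separation of the groups for V-J efficiency, microhomology over 1 bp, P-like insertions, untrimmed Vκ ends and the distal share. Counting each distinct junction once, which also merges separate joints of the same form, kept it for microhomology over 1 bp (0.549 percentage points). It did not for V-J efficiency (0.067, the opposite direction), the P-like share (-0.799), untrimmed Vκ ends (-0.3) or the distal share (0.761), and it turned the insertion share (-0.673) and separated the hybrid share (0.243). V-J efficiency over all junctions gave -0.153. The P-like share overlapped with insertions of 2 or more bases (-3.77), in the smaller run (-2.43) and with both last coding bases kept (-0.465). In the smaller run direct joints (-0.929) and untrimmed Jκ1 ends (-0.416) separated. As a share of Vκ junctions, Jκ1 ends within 1 base of intact turned (0.13). Separation also appeared for junctions within 5 bp (-0.815), the Jκ region without overlaps over 20 bases (-0.222, added after seeing the data) and translocations in the larger run (0.444) or per junction (0.518, log2). Hybrid joints called by the side of the break turned (-0.0472). The causes were not tested.

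Without single libraries, differences ran from -1 to -0.583 for direct joints, -0.0145 (without DMSO library 3) to 0.216 for 1-bp microhomology, 0.0207 to 0.428 for insertions, -0.393 to -0.131 for untrimmed Jκ1 ends, -0.371 to -0.129 within 10 bp, 0.0368 to 0.0792 for hybrid joints, -0.869 to -0.0202 for deletional sites, -0.528 to -0.309 for the Jκ region and 0.203 to 0.566 for translocations. Differences of effect between baits, with this alternative added after seeing the data, ran from -0.373 to 2.93 for V-J efficiency, -0.0533 to 0.234 for hybrid joints (the other turned value -0.00124) and -0.284 to 0.299 for translocations (also turned at -0.0792, -0.221, -0.103 and -0.135). Between genotypes they ran from -2.02 (without the Ku70-/- DMSO library absent from the study's tables) to 1.74 for hybrid joints and -0.359 to 0.00424 for translocations. Site usage gave 0 to 4 calls, inserted sequences 0 to 1 and joint structures 0. Site calls numbered 5 or 6 under the other settings. No paired analysis was possible because the labels give no replicate numbers. Copies made by PCR are not independent molecules, so no counting intervals are given beyond the limit for a count of 0.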
